A study of Mus musculus with 11 samples.

Results

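The VEGF receptor 2 gene *Kdr* and the Tie-angiopoietin genes *Tie1*, *Angpt2*, and *Ptprb* were followed in mouse HaCa4 cells and lymphatic endothelial cells (LECs) grown alone or together. The genes were taken by symbol, which gave all 4 of them among the 290 genes listed for HaCa4 and 1, *Kdr*, among the 191 genes listed for LECs. The HaCa4 line comes from a squamous carcinoma of mouse skin and carries an activating H-Ras mutation. The LECs (line imLEC) are conditionally immortal dermal lymphatic endothelial cells that carry the H-2Kb-tsA58 transgene, a thermolabile SV40 large T antigen. Their maintenance medium contained VEGF and IFN-γ. For functional assays the study kept LECs without IFN-γ at a higher temperature, so that the T antigen was degraded. The paper does not say whether this held for the sequenced cells. A pair of clones was used without distinction, so that the clone behind each library is not known. Single cultures gave 2 HaCa4 control and 3 LEC control libraries, and cells separated by FACS after both lines had shared a dish for 24 h gave 3 HaCa4-sorted and 3 LEC-sorted libraries. Whether control cells also went through the sorter is not stated, and if they did not, sorting and co-culture cannot be told apart. HaCa4 cells were recognised by the dye CFSE and LECs by an antibody to CD31, the product of *Pecam1*.

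VEGF receptor 2 is a receptor tyrosine kinase of endothelial cells that binds VEGF-A and, in lymphatic cells, processed VEGF-C, and drives survival, migration, and sprouting. The Tie system works beside it. The angiopoietins are secreted ligands of the receptor TIE2, TIE1 is a related receptor without a firmly bound ligand of its own that modulates TIE2, and the phosphatase encoded by *Ptprb* (VE-PTP) removes phosphate from TIE2 and holds VEGF receptor 2 signalling at junctions in check. Angiopoietin-2 acts on TIE2 in a context-dependent way and is stored and released by endothelial cells, with roles in vessel remodelling and in the maturation of lymph vessels. All 4 genes are best known from endothelium rather than from keratinocytes.

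RNA levels were deposited as TPM (transcript abundance scaled for transcript length and to a fixed total per library), rounded to 2 decimals. The listed genes made up between 1.84% and 3.85% of a library, and the depth of the libraries is unknown, so the spread between replicates is the only measure of precision. The labels do not say whether replicates were separate cultures, and p-values then measure the spread between these libraries. The lists are selections made by the study. In its size and in its split into higher and lower genes, the LEC list is the set of genes that the study itself called changed in these libraries, so the direction of a LEC gene and its being called here were close to given by the choice. How the HaCa4 list was chosen is not stated, and the direction of its genes is not independent evidence either. Sorted and control libraries of a cell line were compared with limma on log2(TPM + 1) over all its listed genes. A gene was called when its absolute log2 fold change was at least 0.5 and its Benjamini-Hochberg adjusted p at most 0.05. *Krt8*, an epithelial keratin, was at 205 to 380 TPM in the 5 HaCa4 libraries, whereas the keratinocyte markers *Krt5*, *Krt14*, and *Trp63* and, for LECs, the endothelial markers *Pecam1*, *Cdh5*, and *Prox1* were not analysed here.

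*Kdr* lies on chromosome 5 from 75932827 to 75979072 of GRCm38.p6 and *Tie1* on chromosome 4 from 118471191 to 118489849. *Angpt2* lies on chromosome 8 from 18690263 to 18741562 and *Ptprb* on chromosome 10 from 116275502 to 116389538. All 4 are protein-coding genes. For *Kdr* and *Tie1*, the receptor tyrosine kinase genes among them, RefSeq promoter sequence of this build was at hand (2 of the 4 genes). The windows run from 250 bases before to 50 bases after the annotated start, at chr5:75978406-75978705 and chr4:118489800-118490099, both on the minus strand. The *Kdr* start used for its window lies inside the span of the gene. They are shown as these are the genes of the set with an entry, and both are receptors. Capitals mark the letters GGAAG (core of ETS factor sites) and GGGCGG (GC box), on either strand.
Kdr: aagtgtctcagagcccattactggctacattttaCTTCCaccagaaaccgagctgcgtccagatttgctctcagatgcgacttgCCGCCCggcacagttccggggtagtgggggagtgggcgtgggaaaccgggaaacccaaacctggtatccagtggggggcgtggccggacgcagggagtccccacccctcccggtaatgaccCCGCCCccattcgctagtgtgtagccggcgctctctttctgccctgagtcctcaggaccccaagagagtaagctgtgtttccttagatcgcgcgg
Tie1: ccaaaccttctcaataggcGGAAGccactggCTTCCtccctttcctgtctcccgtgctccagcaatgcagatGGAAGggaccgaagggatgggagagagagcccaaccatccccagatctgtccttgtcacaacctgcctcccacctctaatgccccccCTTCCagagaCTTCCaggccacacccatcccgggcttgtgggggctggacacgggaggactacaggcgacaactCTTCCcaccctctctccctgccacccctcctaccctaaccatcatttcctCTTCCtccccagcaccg
The 2 windows had like base composition, with 60.7% G and C for *Kdr* and 60.3% for *Tie1* against a median of 52.7% over 32851 promoter windows of this length. GGAAG occurred 7 times in the *Tie1* window, 2 of them on the sense strand, and 1 time in that of *Kdr*, 216 bases before the start. These letters stand in 71.4% of all windows. GGGCGG occurred 2 times in the *Kdr* window, 166 and 45 bases before the start, and not in that of *Tie1* (35.7% of all windows). Neither window held the GATA factor site, spelled here as AGATAA, which was found in 11.2% of all windows. The letters TATAAA, found in 13.6% of all windows, were in neither as well. The marked motifs do not overlap each other. A match of letters is a description and not a binding site.

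In HaCa4 cells, the transcripts of all 4 genes were scarce in the single cultures and higher in every sorted library. *Kdr*, *Tie1*, and *Ptprb* were under 0.5 TPM in both controls, and *Angpt2* was near 1 TPM. In each gene the 3 sorted libraries lay above the 2 controls, as in 63.1% of the 290 listed genes. The share was 95.3% among listed genes with a higher sorted mean. Counted in either direction, the groups did not overlap in 96.6% of the 290 genes. None of the 4 was called by limma, whereas 30% of the listed genes were, and 15.9% were called higher. At an unadjusted p under 0.05 there was 1 of the 4, *Angpt2*, and 61% of the listed genes. The median log2 fold change of the 4 genes was 1.20, against 0.74 over all listed genes, the lower ones included. Ranked from the largest rise among the 290, *Angpt2* was at 40, *Tie1* at 48, *Kdr* at 110, and *Ptprb* at 170. In bulk RNA, a change in the number of cells that carry a transcript and a change in its amount per cell cannot be told apart.

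*Kdr* was at 0.05 and 0.00 TPM in HaCa4 control replicates 1 and 2 and at 0.15, 1.87, and 1.16 TPM in HaCa4-sorted replicates 1 to 3. The lowest sorted library was 3.0-fold above the highest control, and sorted replicate 1 held the least of the 3, with sorted replicate 2 at 12.5-fold its level. Control libraries averaged 0.025 ± 0.035 TPM (SD, n = 2) and sorted ones 1.06 ± 0.86 TPM (SD, n = 3). The log2 fold change on the log2(TPM + 1) scale was 0.91 (standard error 0.46, 95% interval -0.21 to 2.03, adjusted p = 0.118 from limma), and the gene was not called.

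For *Tie1*, the controls held 0.23 and 0.12 TPM, and sorted replicates 1 to 3 held 0.67, 5.68, and 2.21 TPM. Replicate 2 was again the highest and replicate 1 the lowest, at 2.91-fold the highest control. The control mean of 0.175 ± 0.078 TPM (SD, n = 2) compares with a sorted mean of 2.85 ± 2.57 TPM (SD, n = 3), whose SD was nearly as large as the mean. Its log2 fold change was 1.49 (standard error 0.63, 95% interval -0.03 to 3.01, adjusted p = 0.0854 from limma). *Tek*, which encodes the partner receptor TIE2, and *Angpt1*, its main agonist, were not analysed here.

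*Ptprb* had the lowest mean of the 4 genes in HaCa4-sorted. Its TPM was 0.04 and 0.01 in HaCa4 cells grown alone, and 0.18, 0.94, and 0.49 in sorted replicates taken from 1 to 3. The libraries kept the order of the receptor genes, and the lowest sorted library was 4.5-fold above the highest control. The log2 fold change was 0.55 (standard error 0.33, 95% interval -0.26 to 1.36, adjusted p = 0.16 from limma), a value that the added 1 TPM holds close to 0.

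*Angpt2*, the ligand of the group, was the one gene with a level near 1 TPM in HaCa4 cells grown alone, at 1.02 and 0.91 TPM. Sorted replicates 1 to 3 reached 2.43, 9.12, and 5.83 TPM. All 3 lay at least 2.38-fold above the highest control. Averages were 0.965 ± 0.078 TPM (SD, n = 2) for the controls and 5.79 ± 3.35 TPM (SD, n = 3) for the sorted libraries, which gave a log2 fold change of 1.66 (standard error 0.55, 95% interval 0.32 to 2.99). With an adjusted p of 0.0543 from limma, *Angpt2* came closest to being called.

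**Figure D1:**
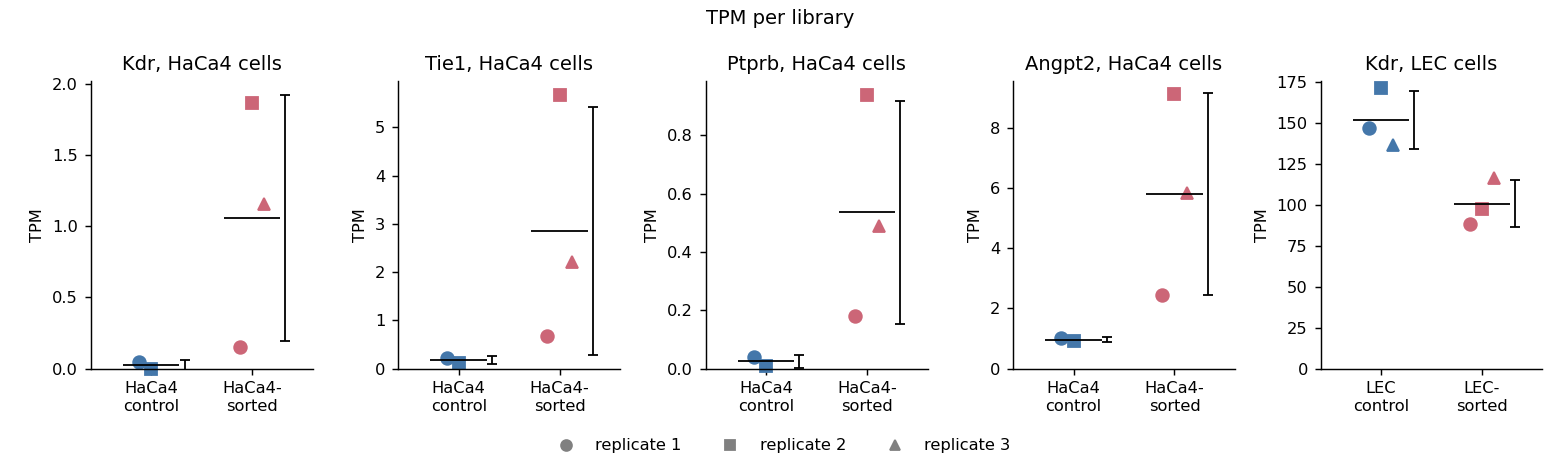
TPM of each gene (y axis, linear, one scale per panel) in control and sorted libraries (x axis). Points are libraries, horizontal lines are group means, and bars beside them are the SD (n = 2 for HaCa4 control, n = 3 otherwise, with bars below 0 not drawn). In HaCa4 cells replicate 2 of the sorted libraries was the highest for all 4 genes, and in LECs *Kdr* lay between 88.48 and 116.71 TPM after co-culture and between 136.83 and 171.50 TPM before.

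Since TPM is scaled for length, the levels of the genes can be ordered. In HaCa4-sorted the order of the means was *Angpt2*, *Tie1*, *Kdr*, and *Ptprb*. *Angpt2* was above *Tie1* within each of the 3 libraries, although their ranges overlapped between libraries. *Kdr* and *Ptprb* changed places, with *Ptprb* slightly higher in replicate 1 and *Kdr* higher in replicates 2 and 3. The ratio of *Kdr* to *Tie1* was 0.22, 0.33, and 0.52 in sorted replicates 1 to 3, that of *Tie1* to *Angpt2* was 0.28, 0.62, and 0.38, and that of *Angpt2* to *Ptprb* was 13.5, 9.70, and 11.9. The last was the steadiest ratio of the 6 pairs, with 1.39-fold between its highest and lowest library, and that of *Kdr* to *Angpt2* the least steady at 3.32-fold.

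The sorted HaCa4 libraries differed from one another far more in these genes than in most of the listed ones. The highest of the 3 sorted libraries exceeded the lowest 12.5-fold for *Kdr*, 8.48-fold for *Tie1*, 5.22-fold for *Ptprb*, and 3.75-fold for *Angpt2*. The median of this ratio over all 290 genes was 1.90. Over the 23 listed endothelial markers treated below it was 15.2, with 4.56 as the lowest, so the spread was not particular to these genes. At the main settings, the calls of the 4 genes changed when sorted replicate 1 was left out. Without it all 4 genes were called, with adjusted p-values from limma of 0.0116 for *Kdr*, 0.0142 for *Tie1*, 0.0274 for *Ptprb*, and 0.012 for *Angpt2*, and the listed genes called numbered 194 instead of 87. Without any other single HaCa4 library none of the 4 was called.

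**Figure D2:**
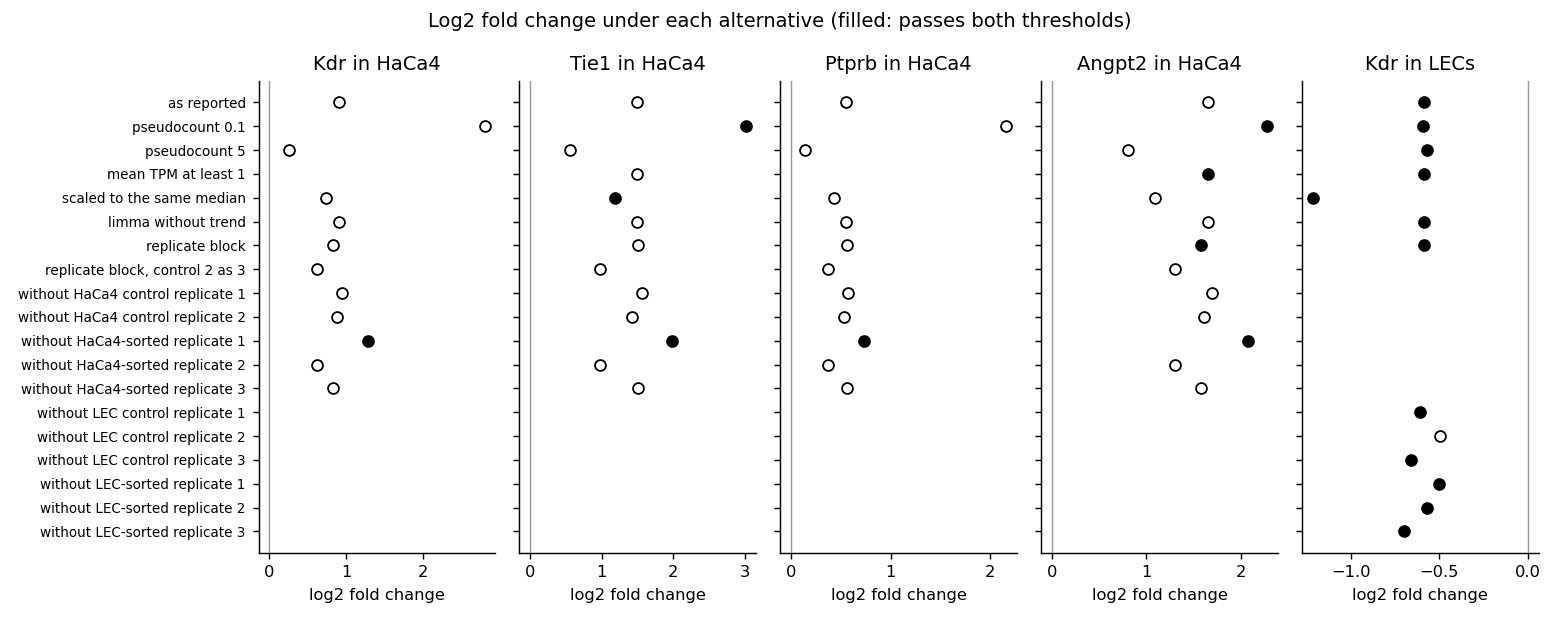
Log2 fold change of sorted over control (x axis, log2 scale, with a scale per panel) for each gene under each alternative (y axis), where filled points pass both thresholds and open points do not. The direction was the same under every alternative drawn, and the fit without HaCa4-sorted replicate 1 passed for all 4 genes in HaCa4.

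The size of the change also depended on how low values were treated. With 0.1 added in place of 1, the log2 fold change of *Tie1* was 3.01 and that of *Angpt2* 2.28, and both were called. Those of *Kdr* and *Ptprb* were 2.80 and 2.16, and neither was called (adjusted p = 0.0548 and 0.0703 from limma). With 5 added, the values were 0.81 for *Angpt2*, 0.55 for *Tie1*, 0.26 for *Kdr*, and 0.14 for *Ptprb*, and none of the 4 was called. When all libraries were brought to a common median of their listed genes, a step that shifted the log2 fold changes by a median of -0.72, the 4 values stayed positive at 0.74 for *Kdr*, 1.18 for *Tie1*, 0.44 for *Ptprb*, and 1.10 for *Angpt2*, and *Tie1* was called (adjusted p = 0.0425 from limma).

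The other genes of the pathway behaved alike. Of a list of 42 genes of VEGF and Tie-angiopoietin signalling, 8 were listed for HaCa4, the 4 above and *Flt4*, *Cdh5*, *Grb10*, and *Nos3*. All 8 had higher sorted libraries without overlap, beside 63.1% of all listed genes and 95.3% of those with a higher sorted mean. By limma 0 of 8 were called, beside 15.9% of all called higher, and 2 had an unadjusted p under 0.05, beside 61%. Their median log2 fold change was 1.24, against 0.74 over all listed genes, the lower ones included. *Flt4*, the gene of the lymphatic VEGF receptor 3, had no signal in either control (listed at 0) and reached 0.23, 5.36, and 2.13 TPM in the sorted replicates in order (log2 fold change 1.54, adjusted p = 0.098 from limma). *Cdh5*, which encodes VE-cadherin, a junction protein that binds VE-PTP, was also listed at 0 in both controls and reached 1.11, 29.73, and 13.78 TPM, for a log2 fold change of 3.30 (limma adjusted p = 0.0543).

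The adaptor and effector genes of the list stayed at or under 2.0 TPM. *Grb10*, an adaptor of receptor tyrosine kinases, held 0.02 and 0.03 TPM in the controls, against 0.24, 2.0, and 1.25 TPM after sorting. *Nos3*, the endothelial nitric oxide synthase, held 0.00 and 0.03 TPM, against 0.11, 1.30, and 0.84 TPM. Their adjusted p-values from limma were 0.0998 and 0.137. Each of the 8 genes had sorted replicate 2 highest, replicate 3 next, and replicate 1 lowest. That order was found in 41.7% of the 290 listed genes and in 53.6% of those with a higher sorted mean.

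**Figure D3:**
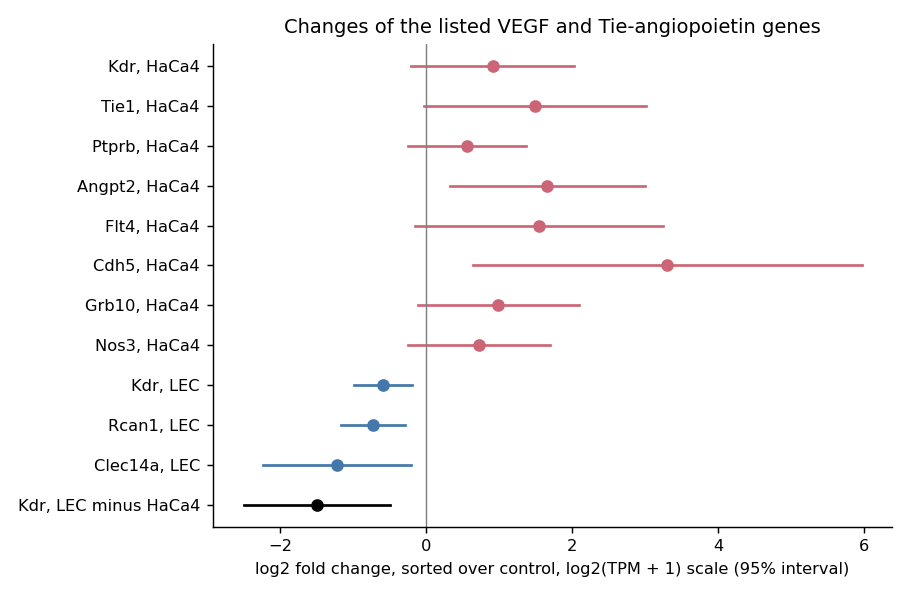
Log2 fold change of sorted over control on the log2(TPM + 1) scale (x axis) for the listed genes of the pathway (y axis) in HaCa4 (8 genes) and in LECs (3 genes), and in the bottom line the change of *Kdr* in LECs minus that in HaCa4. Points are estimates and lines 95% intervals from limma, and the estimates are positive in HaCa4 and negative in LECs.

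Markers of endothelial cells had the same order of libraries as these genes. Of a list of 58 endothelial markers without the 4 genes, 23 were listed for HaCa4, and their TPM summed to 7.28 and 5.50 in the controls and to 29.0, 372, and 164 in sorted replicates 1 to 3. The sum thus differed 12.8-fold between the highest and lowest sorted library. *Flt4*, *Cdh5*, and *Nos3* are also in the pathway list, so the lists are not separate. The sorted mean was the higher one in all 23, and in 21 (91.3%) the libraries did not overlap. That share was 63.1% over all listed genes and 95.3% over those with a higher sorted mean. The same order of the sorted libraries, replicate 2, then 3, then 1, was seen in all 23, beside 53.6% of genes with a higher sorted mean. By limma 3 of the 23 were called higher, a share near or below the 15.9% of all listed genes, and the median log2 fold change of the list was 1.54. Of the defining markers, *Cdh5* and *Emcn* were listed at 0 in both controls and *Pecam1*, the gene of the sorting antigen of LECs, was at 0.14 and 0.04 TPM. In the sorted libraries none of the 23 was at 0, and *Pecam1* was at 1.29, 24.25, and 9.38 TPM. *Cldn5* and *Prox1* were not analysed here. Of 44 keratinocyte markers, 3 were listed for HaCa4, and their summed TPM was 311 and 400 in the controls against 230, 215, and 246 in HaCa4-sorted. By limma 2 of the 3 were called lower, beside 14.1% of all listed genes. Most of each sum was *Krt8*. *Krt19*, a keratin gene outside that list, went the other way. It held 10.03 and 10.28 TPM in the controls, against 16.59, 18.49, and 29.27 TPM in sorted replicates 1 to 3. The part of LEC RNA in the levels of *Kdr*, *Tie1*, *Ptprb*, and *Angpt2* in HaCa4-sorted was not tested.

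Set against single markers, *Kdr* kept the steadiest ratio. *Kdr* per *Emcn* was 0.024, 0.020, and 0.028 in sorted replicates 1 to 3, with 1.43-fold between the highest and the lowest, and *Kdr* per *Pecam1* was 0.116, 0.077, and 0.124. *Tie1* per *Pecam1* was 0.519, 0.234, and 0.236, so that replicates 2 and 3 were alike and replicate 1 higher. The ratios of *Angpt2* and *Ptprb* to *Pecam1* were also highest in replicate 1 and differed 5.01-fold and 3.6-fold between libraries.

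To compare whole patterns, the TPM of a gene in each library was written as a percent of its sum over the 5 HaCa4 libraries, and the likeness of a pair of genes was the sum of the smaller of their percents, with 100 for the same pattern. *Kdr* had 1.55% and 0% of its sum in the controls and 4.64%, 57.9%, and 35.9% in sorted replicates 1 to 3. Among genes with a mean of at least 0.5 TPM, the closest to *Kdr* were *Ecscr*, a surface protein of endothelial cells, *Armcx2*, and *Prom1*, with likeness of 97.9, 97.9, and 97.7. The closest to *Tie1* were *Ctla2a*, *Esam*, an endothelial junction protein, and *Rhoj*, a small GTPase of endothelial cells, at 97.6, 96.5, and 96.2. The closest to *Ptprb* were *Scarf1*, *Sgce*, and *Acvrl1*, the endothelial BMP receptor ALK1, at 97.4, 96.3, and 95.2. *Ptprb* itself, with a mean of 0.332 TPM, is under the limit of 0.5 TPM and was compared all the same. *Angpt2* stood further from its nearest genes, *Tbkbp1*, the BMP ligand gene *Bmp4*, and *Akap12*, at 94.2, 94.1, and 93.8.

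The median likeness to the 20 endothelial markers of sufficient level was 91.0 for *Kdr*, 91.7 for *Tie1*, 89.3 for *Ptprb*, and 81.0 for *Angpt2*. Over all genes compared, the ones lower after sorting included, it was 53.8, 54.1, 59.1, and 67.2. A sufficient level was judged on the mean over all 5 libraries. Markers without signal in either control, such as *Cdh5* and *Emcn*, thus entered through their sorted libraries. Every marker had a higher sorted mean, and no median was taken over the other genes with a higher sorted mean. The gap therefore cannot separate an endothelial pattern from a rise shared with other genes. Among the 4 genes the closest pair was *Kdr* and *Ptprb* at 92.3 and the furthest *Tie1* and *Angpt2* at 83.5. *Angpt2* had the largest shares of the 4 in the controls, 5.28% and 4.71%, and in sorted replicate 1, 12.6%. Its share in sorted replicate 2, 47.2%, was the smallest. These are descriptions over 5 libraries, which the genes share.

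**Figure D4:**
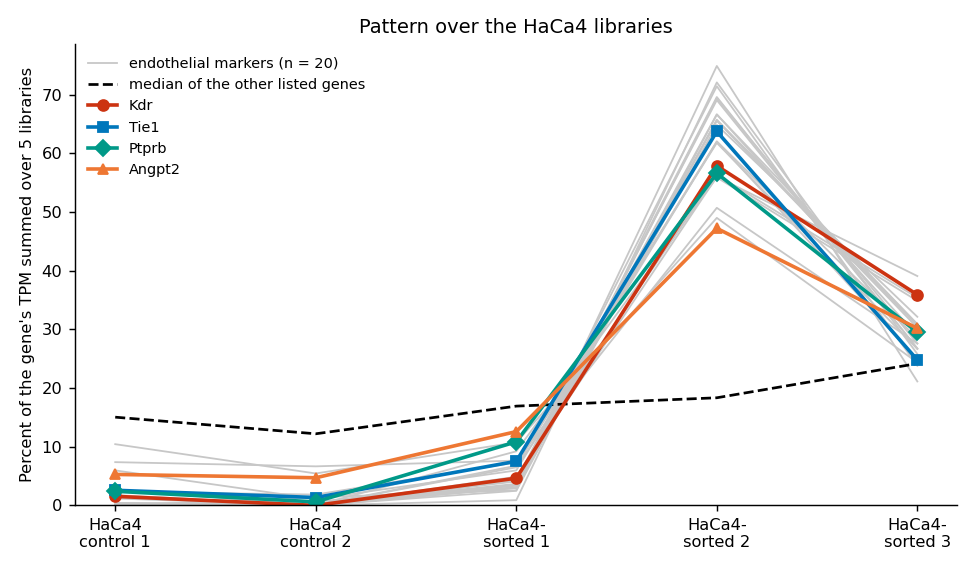
Percent of a gene's summed TPM (y axis) that falls in each of the 5 HaCa4 libraries (x axis). Coloured lines are the 4 genes and grey lines are 20 endothelial markers. The dashed line is the median over the other listed genes, the ones lower after sorting included. *Kdr*, *Tie1*, and *Ptprb* run close to the grey lines and *Angpt2* less closely. All 4 peak in sorted replicate 2, where *Angpt2* is lowest of the 4 at 47.2% and *Tie1* highest at 63.7%.

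In LECs, *Kdr* was abundant and fell after co-culture. It was at 147.29, 171.50, and 136.83 TPM in LEC control replicates 1 to 3 and at 88.48, 97.37, and 116.71 TPM in LEC-sorted replicates 1 to 3. All 3 sorted libraries lay below all 3 controls, as in 33% of the 191 listed genes, and the means were 152 ± 17.8 TPM (SD, n = 3) and 101 ± 14.4 TPM (SD, n = 3). The control mean was 1.51-fold the sorted mean. The log2 fold change was -0.59 (standard error 0.17, 95% interval -0.98 to -0.20, adjusted p = 0.0126 from limma), and *Kdr* was called, as were 96.3% of the listed LEC genes, 32.5% of all being called lower. Since the list holds genes chosen as changed in these libraries, this call adds no independent evidence. The change lies near the threshold of 0.5. Without LEC control replicate 2 it fell just short of the threshold at -0.50, although its adjusted p from limma was 0.0345. Scaling of libraries to a common median made it -1.21, while the median shift over all listed LEC genes was -0.61.

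Both other listed genes of the pathway fell as well in LECs. *Rcan1*, a calcineurin inhibitor gene induced by VEGF, went from 46.01, 55.70, and 53.15 TPM to 26.61, 29.48, and 36.83 TPM, which gave a log2 fold change of -0.73 with a standard error of 0.19 (limma adjusted p = 0.00944). *Clec14a*, an endothelial surface lectin that binds the VEGF receptor 2 modulator MMRN2, went from 44.29, 132.91, and 50.34 TPM to 19.56, 30.76, and 36.60 TPM, which gave a log2 fold change of -1.22 (limma adjusted p = 0.0266). In both genes the sorted libraries lay below the controls, and sorted replicate 3 was the highest of the sorted ones, as for *Kdr*. With *Kdr*, 3 of 3 listed pathway genes were called lower, beside 32.5% of all listed LEC genes called lower and 96.3% called in either direction. Their median log2 fold change was -0.73 against 0.87 over all 191 genes. As the list holds genes chosen as changed in these libraries, these calls add no independent evidence.

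The genes with the pattern most like *Kdr* over the 6 LEC libraries were *Vim*, which encodes vimentin, *Baiap2*, an adaptor of actin remodelling, and *Crip2*. Their likeness was 97.5, 97.5, and 97.4. The median over all genes compared, the ones higher after co-culture included, was 74.4. Of the endothelial markers, 2 of 58 were listed for LECs, *Clec14a* and the transcription factor gene *Lyl1*. Their summed TPM ranged from 87.5 to 168 in the controls and from 40.6 to 67.8 in LEC-sorted. Of the keratinocyte markers, 1 was listed for LECs. That gene, *Krt8*, was at 0 in all 3 controls and at 0.19, 2.19, and 0.89 TPM in LEC-sorted replicates 1 to 3. Its levels in HaCa4 are given above. The part of HaCa4 RNA in the fall of *Kdr* was not tested.

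The change of *Kdr* differed between the cell lines. Over the 23 genes listed for both, an interaction term in limma with all 11 libraries gave a change in LECs minus that in HaCa4 of -1.50 on the log2 scale (standard error 0.46, 95% interval -2.50 to -0.50, adjusted p = 0.0103 from limma). This test passed in 82.6% of the 23 genes. The LEC genes were chosen as changed in these same libraries, so the test adds no independent evidence of a difference. The levels themselves remained far apart after co-culture. In sorted replicates 1 to 3, *Kdr* in HaCa4-sorted stood at 0.149%, 1.85%, and 1.15% of its mean in LEC-sorted, while the HaCa4 controls stood at 0.050% and 0%. The values come from separate files for each cell line.

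The same percent can be given for every gene listed for both cell lines. Besides *Kdr*, 3 of them were under 0.5 TPM in both HaCa4 controls, named here after their values had been seen. *Gas6*, a ligand of TAM receptor kinases, stood at 0.255%, 1.80%, and 1.10% of its LEC-sorted mean in HaCa4-sorted replicates 1 to 3. *Sfrp1*, a secreted WNT antagonist, stood at 0.075%, 1.91%, and 0.771%. *Timp3*, a metalloprotease inhibitor that also binds VEGF receptor 2, stood at 1.51%, 2.24%, and 2.21%. In replicate 2, where the levels of these genes were highest, the 4 percents lay between 1.80% and 2.24%. The remaining 19 genes had medians of 103%, 79.3%, and 103%, but they were not all apart from these 4. The lowest of them was *Mest*, an imprinted hydrolase gene, at 0.400%, 1.99%, and 1.0%, and *Adm*, which encodes the lymphangiogenic peptide adrenomedullin, stood at 0.840%, 2.39%, and 1.11%. The higher of the 2 HaCa4 controls held 1.56 TPM of *Mest* and 1.67 TPM of *Adm*. *Tie1*, *Ptprb*, and *Angpt2* were not analysed here in LECs, and no such percent can be given for them.

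**Figure D5:**
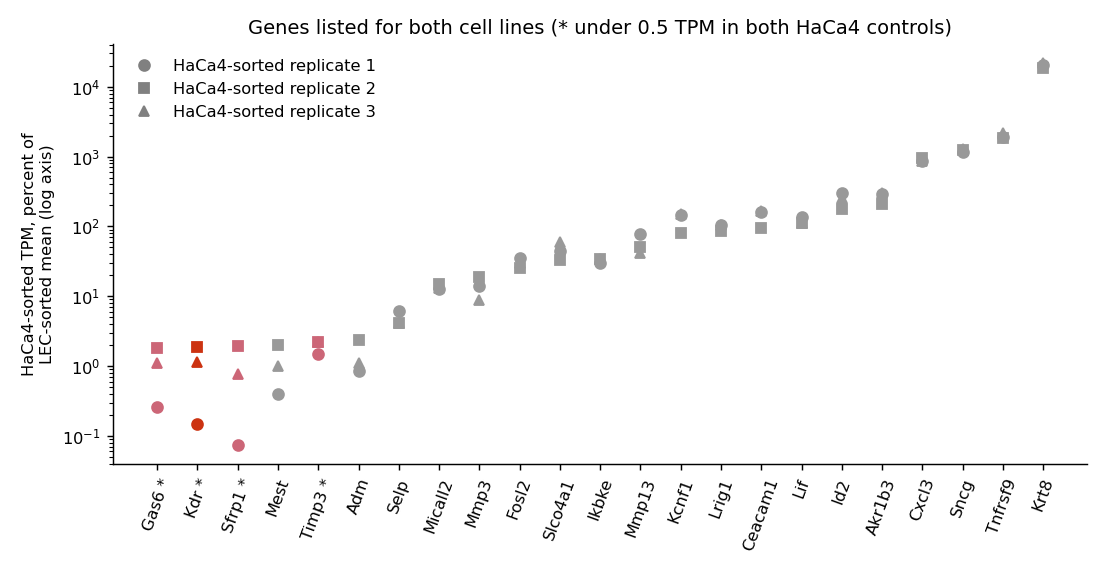
TPM in each HaCa4-sorted library as a percent of the mean TPM in LEC-sorted (y axis, log axis) for the 23 genes listed for both cell lines (x axis, ordered by replicate 2). *Kdr* (red) and the other 3 genes under 0.5 TPM in both HaCa4 controls (starred) are toward the left, at 1.80% to 2.24% in replicate 2, with *Mest* at 1.99% among them and *Adm* next at 2.39%.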

How the data were processed

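RNA of 11 libraries was extracted with the RNeasy Plus Mini kit, made into MGIEasy libraries, and sequenced on a BGISEQ platform. The authors filtered reads with SOAPnuke, mapped the rest to GRCm38.p6 (HISAT2 2.0.4 in the submitters' processing notes), and deposited TPM values per gene and library, rounded to 2 decimals and without pooling, for a selected set of genes. The tool that gave the TPM values is not given in the sources used here. TPM keeps no read numbers, so no counting error can be given, and a level of 0.01 TPM is the smallest step. Replicate libraries shared at most 5 identical values above 0, and no library was a copy of another.

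The *Kdr*, *Tie1*, *Angpt2*, and *Ptprb* set, the gene lists, and the tests were chosen with earlier results of these data known. Each cell line was fitted alone with limma 3.58.1 in R 4.3.3 (empirical Bayes, prior variance trended on the mean of log2(TPM + 1), two-sided, Benjamini-Hochberg over its listed genes), at the thresholds of the study, 0.5 for the absolute log2 fold change and 0.05 for the adjusted p. The study's own count model needs counts, which were not used here. The step was tested on simulated data whose levels were set well above those of the 4 genes in HaCa4, so it was not tested at such low levels. The difference of *Kdr* between cell lines was an interaction term over 23 genes and 11 libraries. Named were the 4 genes, listed members of the pathway list, defining markers, and the 3 genes most like each of the 4 in pattern. Alternatives were pseudocounts of 0.1 and 5, a mean TPM of at least 1, scaling each library to the same median, no trend, a replicate block, and leaving out each library. Numbering the second HaCa4 control 3 in that block, as its values carry that number while its label says 2, was chosen after seeing the data. Gene positions and promoters are from RefSeq for GRCm38.p6, matched by Entrez ID. Tables and plots used Python 3.11.15, pandas 2.3.3, and matplotlib 3.10.9.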

Additional observations from a re-analysis of the deposited data

Results flagged for a closer look

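The change of *Kdr* in LECs and that in HaCa4 cells went opposite ways, with every LEC-sorted library below its controls and every HaCa4-sorted library above its own. The difference, LECs minus HaCa4, was -1.50 in log2 units with a standard error of 0.46, and limma's interaction term had an adjusted p of 0.0103. It lay between -1.87 and -1.21 when any of the 11 libraries was left out, and the adjusted p between 0.000896 and 0.0367. Its size depended on the pseudocount, with -3.39 at 0.1 and -0.83 at 5, and it passed at both. The HaCa4 side of the difference rests on levels under 2 TPM and did not pass its own test. The LEC side comes from a list chosen as changed in these libraries, so the difference is not independent evidence.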

How the results depend on the processing

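All log2 fold changes of the 4 genes kept their direction under every alternative run. *Angpt2* was called at 2.28 with a pseudocount of 0.1, at 1.66 among genes with a mean TPM of at least 1, and at 1.58 with a replicate block. *Tie1* was called at 3.01 with a pseudocount of 0.1 and at 1.18 with median scaling. Leaving out 1 library gave 1.30 to 2.08 for *Angpt2*, 0.98 to 1.98 for *Tie1*, 0.62 to 1.28 for *Kdr*, 0.37 to 0.73 for *Ptprb*, and -0.70 to -0.50 for *Kdr* in LECs. *Kdr* and *Ptprb* in HaCa4 have no value at a mean TPM of at least 1. The 87 HaCa4 genes called became 177 with a pseudocount of 0.1, 33 with 5, 145 (50 higher, 95 lower) with median scaling, and 0 without the trend (161 at an unadjusted p under 0.05 in limma). Without 1 library they numbered 0 to 194, with 6 without control replicate 1, 0 without control replicate 2 (70 at an unadjusted p under 0.05), and 0 without sorted replicate 3 (126). The 8 pathway genes, with 0 called, had 5, 2, and 3 called with a pseudocount of 0.1, a mean of at least 1, and median scaling, and 0 to 8 without 1 library. The 3 endothelial markers called became 15, 7, and 13 under these settings, 0 with a pseudocount of 5 and 0 without the trend (4 and 8 at an unadjusted p under 0.05), and 0 to 23 without 1 library. In LECs the 184 genes called became 110 (46 higher, 64 lower) with median scaling. The cause was not tested.

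The replicate numbers gave no evidence of pairing in LECs, where deviations of same-numbered libraries correlated at 0.23, 0.07, and -0.02 over genes and only those numbered 1 correlated best with their own number. With 2 numbers in HaCa4 (0.23 and 0.28) it cannot be judged. With the replicate block, 115 HaCa4 genes, 182 LEC genes, 2 pathway genes, and 8 endothelial markers were called, and the *Kdr* difference between cell lines was -1.42. No HaCa4 control is labelled 3, so HaCa4-sorted replicate 3 did not enter the HaCa4 fold changes of that fit. The *Angpt2* value of 1.58 was the same as without that library, where *Angpt2* was not called (adjusted p = 0.117 from limma). With the second HaCa4 control numbered 3 in the block, 22 HaCa4 genes and 0 endothelial markers were called (6 at an unadjusted p under 0.05 in limma), as were 0 pathway genes (1), and *Angpt2* was not called at 1.30 (adjusted p = 0.131 from limma). In that numbering HaCa4-sorted replicate 2 did not enter the fold changes.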
